A study of Homo sapiens with 12 samples.

Results

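The genes described here are the 52 genes of the N-glycosylation machinery, the pathway that tunicamycin (TN) blocks. They were chosen by gene symbol among the 60708 genes of the count tables. All 52 passed the filter on low counts and were tested under both stressors, and the lowest count of any of them in any library was 12. They fall into 6 steps. These are 4 genes for UDP-GlcNAc, 5 for GDP-mannose, and 9 for dolichol, its mannose donor, and the use of dolichol-linked sugars. The others are 14 for the lipid-linked oligosaccharide, 10 subunits of the oligosaccharyltransferase, and 10 genes of trimming.

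In N-glycosylation, a branched sugar chain is built on the lipid dolichol in the membrane of the endoplasmic reticulum (ER), first on the cytosolic and then on the lumenal side. The oligosaccharyltransferase moves the finished chain as a block onto asparagine residues of proteins that enter the ER. Glucosidases and mannosidases then trim it, and the glucosyltransferase UGGT1 adds a glucose back to proteins that are not yet folded. TN resembles UDP-GlcNAc and inhibits DPAGT1, the enzyme that adds the first sugar to dolichol phosphate, so that no chain is started. Oligomycin A (OA), the other stressor of the study, inhibits the mitochondrial ATP synthase.

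HCT116 cells, a human colorectal carcinoma line, were treated with 5 µg/mL OA or 5 µg/mL TN for 24 h, and each stressor had cells of its own that received DMSO alone, here called OActrl and TNctrl. The paper's methods give a higher dose for OA than the sample labels, and the same dose for TN. Each of the 4 groups (OActrl, OA, TNctrl, and TN) had 3 libraries, labelled as biological replicates. The labels do not say how the cultures were separated, so the p-values measure the spread between these libraries. The question was how the transcripts of the blocked pathway responded to the drug that blocks it, and to a stressor that acts elsewhere. Levels are CPM, the count of a gene scaled by the size of its library after TMM normalization. A gene was called changed when its p from edgeR's quasi-likelihood test, adjusted after Benjamini and Hochberg for all genes tested, was below 0.05, and every adjusted p given here comes from edgeR unless another tool is named. Where no other fit is named, called refers to this test, without a block or offsets.

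The libraries held 9884124 to 24983573 counts. The summed level of 8 markers of colon epithelium was 4240 to 6270 CPM in the OActrl libraries, 5410 to 8910 CPM in OA, 4320 to 5760 CPM in TNctrl, and 5110 to 9150 CPM in TN, whereas VIL1 was at 0.277 CPM or less. Of 13 markers of leukocytes, fibroblasts, and endothelium, CD3E and LUM were at 0 in every library, and COL1A1 alone exceeded 1.04 CPM. The summed fibroblast markers were at 1.19 to 2.19 CPM in OActrl, 3.84 to 12.4 CPM in OA, 1.65 to 3.56 CPM in TNctrl, and 1.75 to 4.11 CPM in TN. The libraries differed in how levels depended on the GC content of the transcript. For this, the deviation of a library was taken from the mean of all treated and DMSO libraries of its stressor. Its rank correlation with GC content across genes was 0.503 in OA replicate 2 and 0.685 in TN replicate 1. In the other 10 libraries this correlation lay between −0.614 and 0.327. The deviations of treated and DMSO libraries with the same replicate number from their group means correlated across genes at 0.748, 0.64, and 0.131 for OA and 0.728, 0.524, and 0.562 for TN. Some differently numbered libraries correlated as well, at 0.184 for OA 1 with OActrl 3, 0.562 for TN 2 with TNctrl 3, and 0.488 for TN 3 with TNctrl 2. Fits with the replicate number as a block are given beside the results.

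The sequence upstream of the start was available in RefSeq (GRCh38.p14) for 46 of the 52 genes, as 250 bases before the start. The 6 genes without it were ALG10, STT3B, MOGS, MAN1A2, and the called genes RPN1 and TUSC3. The ER stress response element, CCAAT and CCACG with 9 bases of any kind between them, on either strand, is the classical site through which ATF6 and NF-Y act on chaperone genes. Its letters occurred in 1 of the 46 windows, that of ALG12, and in 0.0806% of all 27305 windows of this length. The CCAAT box alone, which is the first 5 letters of that element, occurred in 19 of the 46 (41.3%) and in 33% of all windows. A related element (ATTGG, 1 base of any kind, and CCACG), the element of XBP1 (TGACGTGG), and the C/EBP-ATF element of the integrated stress response (TGATGNAAT) occurred in 0 of the 46, against 0.0513%, 0.667%, and 0.916% of all windows. The upstream sequence of ALG12 is shown as the window with the whole element, that of STT3A as a called gene with CCAAT boxes, and that of GFPT1 as a called gene with none of these motifs. The stretches are chr22:49918439-49918633 on the minus strand, chr11:125592602-125592818 on the plus strand, and chr2:69387251-69387477 on the minus strand of GRCh38.p14. The outer 55 bases of the ALG12 window lie in an exon of CRELD2, a gene that starts on the opposite strand, and are left out, as are the last 33 bases of the STT3A window and the last 23 of the GFPT1 window, which lie in exons of other transcripts of these genes. The STT3A window lies inside the gene as Gencode bounds it. Capitals mark the ER stress response element and each CCAAT box, as CCAAT or, on the other strand, as ATTGG. The element of ALG12 spans 134 to 116 bases before the start. A match of letters is a description of the window and does not show that a factor binds there.
ALG12: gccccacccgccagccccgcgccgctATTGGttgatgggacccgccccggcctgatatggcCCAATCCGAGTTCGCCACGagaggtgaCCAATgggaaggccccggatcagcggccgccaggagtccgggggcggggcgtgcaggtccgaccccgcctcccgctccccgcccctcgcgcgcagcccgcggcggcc
STT3A: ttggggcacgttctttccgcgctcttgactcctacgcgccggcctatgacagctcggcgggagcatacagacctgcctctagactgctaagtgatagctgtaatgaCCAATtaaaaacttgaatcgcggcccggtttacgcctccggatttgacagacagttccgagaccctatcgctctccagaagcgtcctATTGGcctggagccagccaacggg
GFPT1: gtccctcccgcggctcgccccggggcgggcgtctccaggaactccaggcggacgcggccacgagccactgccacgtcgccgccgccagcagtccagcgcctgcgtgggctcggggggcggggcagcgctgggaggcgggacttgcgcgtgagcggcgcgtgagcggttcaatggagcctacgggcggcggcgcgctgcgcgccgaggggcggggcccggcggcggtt

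Under TN, 6 of the 52 genes were called higher and 0 lower. These 6 were GFPT1, which makes the first product of the UDP-GlcNAc pathway, the oligosaccharyltransferase subunits RPN1, RPN2, DDOST, and STT3A, and UGGT1, and their fold changes lay between 1.82 and 2.93. The share of 11.5% stands beside 3.65% of all 14432 tested genes that were called higher, 3.34% called lower, and 6.99% called in either direction. The median log2 fold change of the 52 genes was 0.43, against −0.031 for all tested genes, and 40 of the 52 had a positive sign, against 48.1% of all genes. Scaling to total counts gave a median of 0.25 with 34 of the 52 positive, where the median of all genes was −0.18. In 17 of the 52 (32.7%), all TN libraries were above all DMSO libraries, against 15.9% of all genes, and in 4 (7.69%) they were all below, against 16.8%. At an unadjusted p under 0.05, 17 were higher and 2 lower, and 24.3% of all genes were below this p in either direction. With the replicate block, 19 of the 52 (36.5%) were called higher and 4 (7.69%) lower, while 11.8% of all genes were called higher and 15.3% lower. DESeq2 called 13 of the 52 higher and 0 lower, against 7.83% and 7.15% of all genes, and these were the same 6 with GMPPA, GMPPB, ALG2, ALG5, MAGT1, OSTC, and MAN1B1. Leaving out 1 library moved the number of members called from 6 to between 0 and 14, and that of all genes from 1009 to between 151 and 2361. Without DMSO replicate 2 or 3, 0 members were called, beside 183 and 151 of all genes. Without TN replicate 1, 14 members were called. In bulk RNA such as this, a change in the number of cells of a kind and a change in RNA per cell cannot be told apart.

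Under OA, 2 of the 52 genes were called, GFPT1 and the oligosaccharyltransferase subunit TUSC3, both higher. This share of 3.85% is near the 2.76% of all 14681 tested genes that were called higher, beside 1.72% called lower and 4.48% in either direction. The median log2 fold change was 0.36, against −0.022 for all genes, and 36 of the 52 had a positive sign, against 48.8%. Without OA replicate 2, the members' median was 0.14, and scaling to total counts gave 0.10 with 28 of the 52 positive, where the median of all genes was −0.23. In 9 of the 52 (17.3%), all OA libraries were above all DMSO libraries, against 16.3% of all genes, and in 1 (1.92%), ALG8, they were all below, against 15.5%. With the replicate block, 9 (17.3%) were called higher, against 11.7% of all genes, and 4 (7.69%) were called lower, against 15%. Summed over both directions, the 25% of the members called with the block lay near the 26.7% of all genes. DESeq2 called 4 of the 52 higher and 0 lower, against 7.82% and 5.32% of all genes, and the 2 beyond GFPT1 and TUSC3 were DDOST and RPN2. Leaving out 1 library gave between 0 and 2 called members, with 0 without OA replicate 3 or any one of the DMSO libraries. The number of all genes called moved from 658 to between 3 and 1179.

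**Figure D1:**
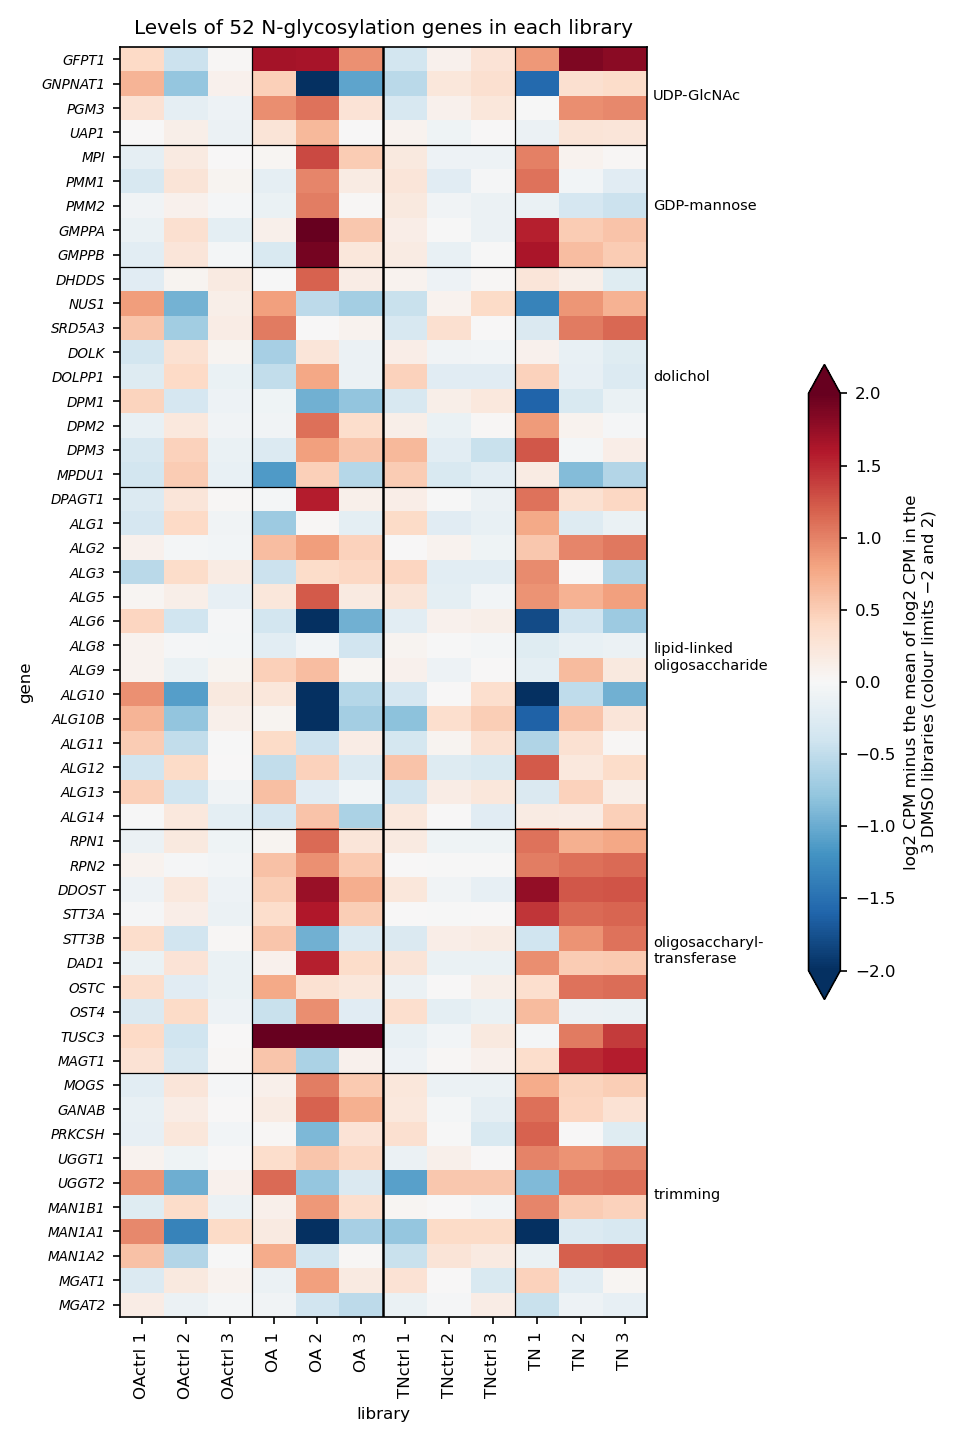
Level of each of the 52 genes (rows, in 6 steps) in each of the 12 libraries (columns), as log2 CPM minus the mean of log2 CPM in the 3 DMSO libraries of the same stressor, with red for higher and blue for lower. The row of TUSC3 is red in all 3 OA libraries and that of DDOST in all 3 TN libraries, while OA replicate 2 and TN replicate 1 differ from the other treated libraries in many rows.

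**Figure D2:**
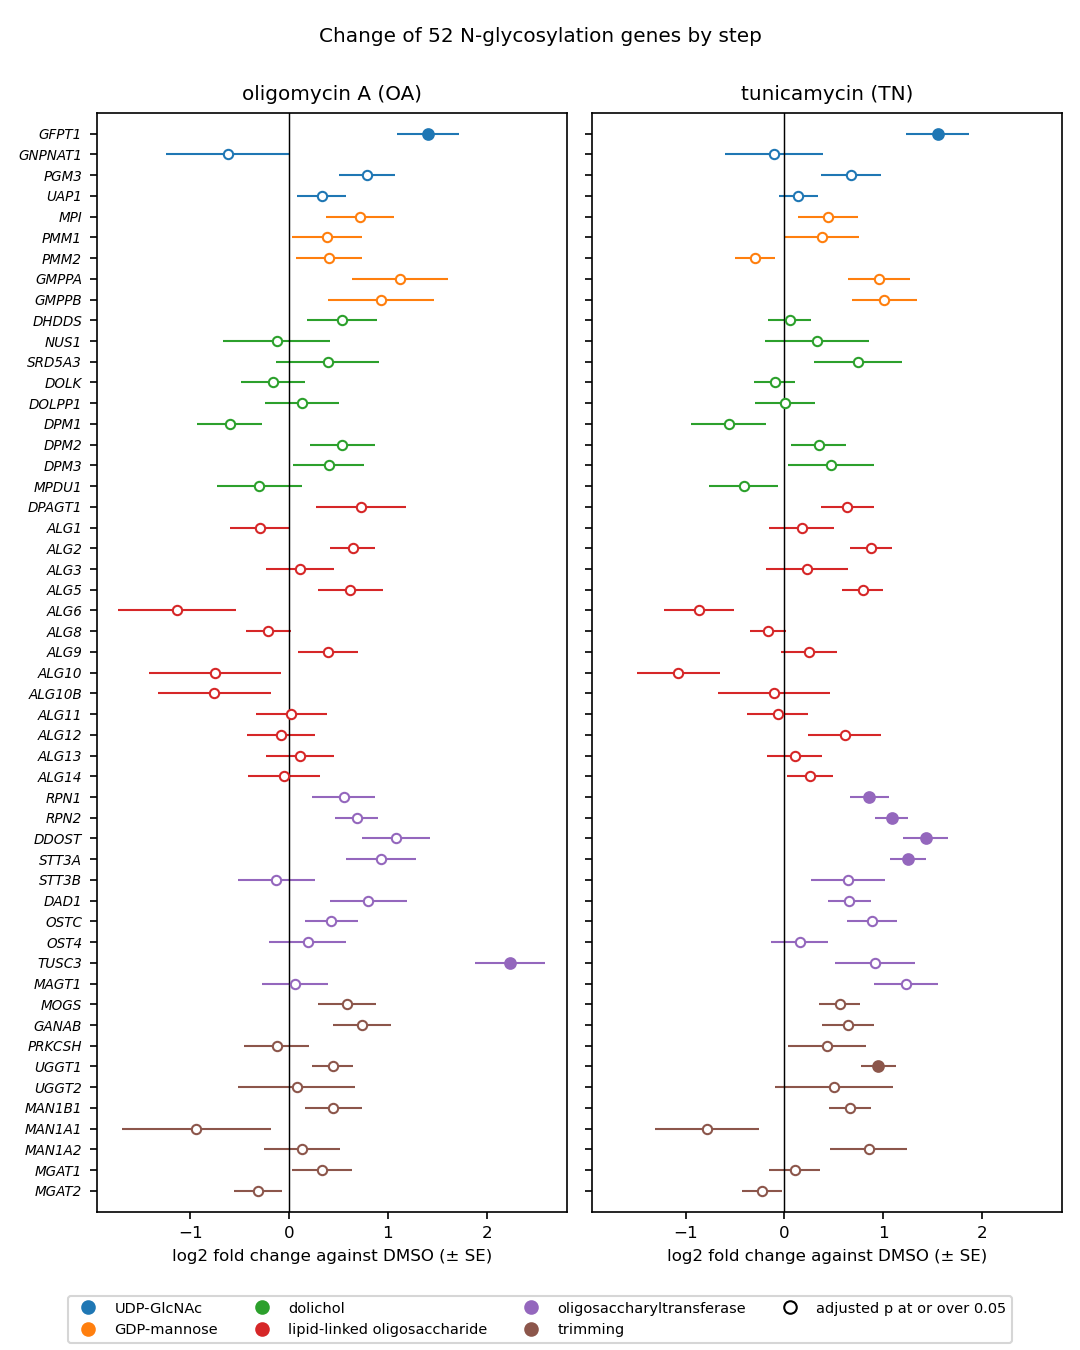
Log2 fold change against DMSO with its SE for the 52 genes under OA (left) and TN (right), coloured by step, with filled points for an adjusted p under 0.05 in edgeR's test (n = 3 libraries a group). Filled points are GFPT1 and TUSC3 under OA, and GFPT1, RPN1, RPN2, DDOST, STT3A, and UGGT1 under TN.

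The target of TN, DPAGT1 (ENSG00000172269.20, chr11:119096025-119108331 on the minus strand of hg38), was measured at 15.9, 14.5, and 13.4 CPM in the DMSO libraries and at 30.9, 18, and 19.3 CPM in the TN libraries of replicates 1 to 3. All TN libraries were above all DMSO libraries, and TN replicate 1 was the highest. The log2 fold change was 0.64 (SE 0.27), with an unadjusted p of 0.0489 and an adjusted p of 0.203 in edgeR's test, so that DPAGT1 was not called. The adjusted p was 0.0524 with the replicate block and 0.0491 with offsets for GC content, an alternative that was added after the data were seen. With OA, the levels were 13.6, 19.4, and 16.7 CPM in the DMSO libraries and 15.9, 48.9, and 17.5 CPM in the OA libraries. Here the groups overlapped, and OA replicate 2 was far above the other 5 libraries. Without it, the log2 fold change of 0.73 (SE 0.45, adjusted p 0.369) became 0.0047.

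In the UDP-GlcNAc step, which makes the sugar donor that TN resembles, GFPT1 rose under both stressors, and the other 3 genes were not called. GFPT1 (ENSG00000198380.13, chr2:69319780-69387250 on the minus strand) encodes glutamine-fructose-6-phosphate transaminase 1, the rate-limiting enzyme of the hexosamine pathway. Its levels were 60.8, 83.1, and 94.7 CPM in the TNctrl libraries and 143, 284, and 273 CPM with TN. The lowest TN library, replicate 1, was still above the highest DMSO library. The means were 79.5 ± 17.2 and 233 ± 78.4 CPM (SD, n = 3), and the log2 fold change was 1.55 (SE 0.32, adjusted p 0.032). With OA, GFPT1 was measured at 81.3, 46, and 63.1 CPM in the DMSO libraries and at 196, 193, and 116 CPM in the OA libraries, again without overlap. The means were 63.5 ± 17.7 and 168 ± 45.5 CPM (SD, n = 3), and the log2 fold change was 1.41 (SE 0.32, adjusted p 0.0471). The replicate block lowered the adjusted p to 5.75e-04 for TN and 0.00338 for OA. When 1 library was left out, the log2 fold change of GFPT1 was 1.39 to 1.86 for TN and 1.27 to 1.67 for OA, and most of these fits lost the call. Under TN, the call held without TN replicate 1 (adjusted p 0.0015) and was lost without any one of the other 5 libraries, where the adjusted p was 0.108 without TN replicate 2, 0.121 without TN replicate 3, and 0.111, 0.143, and 0.116 without DMSO replicates 1, 2, and 3. Under OA, it was lost without each library in turn, with 0.0556, 0.053, and 0.0793 without OA replicates 1 to 3 and 0.125, 0.149, and 0.219 without DMSO replicates 1 to 3. Scaling to total counts gave an adjusted p of 0.0675 for TN and 0.0959 for OA, with log2 fold changes of 1.44 and 1.19. With GC offsets, the log2 fold changes were larger, at 1.85 for TN (adjusted p 7.87e-04) and 2.08 for OA (0.0131).

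PGM3, the mutase of the same pathway, was measured at 88.2, 117, and 129 CPM in the DMSO libraries and 109.8, 209.6, and 214 CPM with TN, and TN replicate 1 lay within the range of the DMSO libraries. Its log2 fold change was 0.68 (SE 0.31, adjusted p 0.227, with the block 0.0209). With OA, the levels were 110.4, 79.1, and 83.5 CPM in the DMSO libraries and 171, 191, and 109 CPM in the OA libraries, with a log2 fold change of 0.79 (SE 0.28, adjusted p 0.144, with the block 0.0272). OA replicate 3, at the low end, lay just under the highest DMSO library. With GC offsets, the log2 fold change of PGM3 was 0.97 for TN (adjusted p 0.0105) and 1.45 for OA (0.0553). GC offsets with the block gave 1.25 for OA (0.00694). GNPNAT1, the acetyltransferase of the pathway, had a log2 fold change of −0.62 with OA (SE 0.63, adjusted p 0.583) and was called lower with the block, at 0.0284, but not with GC offsets and the block (−0.45, adjusted p 0.118). UAP1, which makes UDP-GlcNAc itself, had log2 fold changes of 0.33 with OA and 0.14 with TN, with adjusted p of 0.454 and 0.722. These became 0.94 and 0.49 with GC offsets (0.212 and 0.341), and UAP1 was called higher under both with GC offsets and the block (0.0199 and 0.0229).

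In the GDP-mannose step, no gene was called in edgeR's test, while DESeq2 called GMPPA and GMPPB with TN (adjusted p 0.0376 and 0.0358), as did edgeR with GC offsets (0.0184 and 0.014). GMPPA and GMPPB, the regulatory and catalytic subunits of GDP-mannose pyrophosphorylase, were higher in all TN libraries than in all DMSO libraries. GMPPA was measured at 85.7, 77.6, and 72 CPM in the DMSO libraries and 229, 112, and 116 CPM with TN, a log2 fold change of 0.96 (SE 0.31, adjusted p 0.114, with the block 0.0136). GMPPB was measured at 43, 34.9, and 38.1 CPM and 119, 59.4, and 55 CPM, a log2 fold change of 1.01 (SE 0.33, adjusted p 0.112, with the block 0.0127). Both were highest in TN replicate 1, and with OA both were highest in OA replicate 2. With OA, GMPPA was at 74.3, 102, and 71.2 CPM in the DMSO libraries and 86.9, 335, and 118 CPM in the OA libraries (log2 fold change 1.13, SE 0.49, adjusted p 0.211, with the block 0.0361). GMPPB was at 43.2, 58.7, and 48.7 CPM and 40.2, 188, and 58.4 CPM (log2 fold change 0.93, SE 0.53, adjusted p 0.334). Without OA replicate 2, the log2 fold changes under OA became 0.30 for GMPPA and −0.043 for GMPPB. MPI, the isomerase that feeds mannose 6-phosphate, was likewise highest in TN replicate 1 and OA replicate 2 and overlapped in both comparisons, with 56.4, 46.1, and 45.9 CPM in the DMSO libraries and 99.3, 51.9, and 50.3 CPM with TN (log2 fold change 0.44, SE 0.31, adjusted p 0.433), and with 42.4, 54.2, and 48 CPM and 49, 119.8, and 68.4 CPM for OA (log2 fold change 0.71, SE 0.35, adjusted p 0.257). The mutases PMM1 and PMM2 had log2 fold changes of 0.38 and 0.40 with OA and of 0.38 and −0.30 with TN, and PMM2 was lower in all TN libraries than in all DMSO libraries.

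In the dolichol step, no gene was called under either stressor, and the median log2 fold change was 0.13 with OA and 0.052 with TN. Both medians were negative, at −0.15 and −0.11, under scaling to total counts, which moved the median of all genes to −0.23 and −0.18. DPM1, the catalytic subunit of dolichol phosphate mannose synthase, was measured at 77.8, 105, and 112 CPM in the DMSO libraries and 32, 78.9, and 88.2 CPM with TN, and at 98.3, 56.9, and 67.2 CPM and 68.1, 36.9, and 41.7 CPM for OA. Its log2 fold changes were −0.56 (SE 0.38, adjusted p 0.418) and −0.60 (SE 0.33, adjusted p 0.314), and with the block it was called lower under both, at 0.046 and 0.0314. GC offsets with the block ended both calls, with log2 fold changes of −0.34 for TN (adjusted p 0.0539) and −0.088 for OA (0.739). Each treated library lay below the DMSO library of its own number, and the groups overlapped. DPM2, a subunit that stabilizes DPM1, had the opposite sign, with 29, 24.4, and 27.4 CPM in the DMSO libraries and 48.2, 28.2, and 26.4 CPM with TN (log2 fold change 0.35, SE 0.28, adjusted p 0.502), and 30.4, 38.8, and 32 CPM and 32.1, 72.1, and 43 CPM for OA (log2 fold change 0.54, SE 0.33, adjusted p 0.366). SRD5A3, the polyprenol reductase, was the lowest of the 52 per length in both DMSO groups and was measured at 1.64, 2.56, and 2.08 CPM in the DMSO libraries and 1.69, 4.24, and 4.55 CPM with TN, from 30, 45, and 28 and 16, 46, and 53 counts. Its log2 fold change was 0.74 (SE 0.45, adjusted p 0.361) with TN and 0.39 (SE 0.52, adjusted p 0.68) with OA, where the levels were 1.89, 0.79, and 1.42 CPM and 2.65, 1.3, and 1.35 CPM. The other 6 genes were the prenyltransferase subunits DHDDS and NUS1, the kinase DOLK, the phosphatase DOLPP1, the subunit DPM3, and MPDU1, which is needed for the use of the dolichol-linked sugars. Their log2 fold changes lay between −0.30 and 0.53 with OA and between −0.41 and 0.48 with TN, with adjusted p of 0.403 or more.

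The 14 genes of the lipid-linked oligosaccharide, which begin with DPAGT1 and continue with the ALG glycosyltransferases, had median log2 fold changes of −0.015 with OA and 0.20 with TN, and 0 were called in edgeR's test. At an unadjusted p under 0.05, 1 was higher with OA, and 3 were higher and 2 lower with TN, beside 23.3% and 24.3% of all genes at this p. DESeq2 called ALG2 and ALG5 with TN. ALG2, a mannosyltransferase of the early steps on the cytosolic side, came closest to a call in edgeR's test. With TN it was called in 1 edgeR fit of all 12 libraries (adjusted p 0.0247). GC offsets called it under TN (0.00222) and OA (0.0453). It was measured at 49.9, 52.1, and 46.9 CPM in the DMSO libraries and 72.4, 97.7, and 103 CPM with TN, a log2 fold change of 0.88 (SE 0.21, adjusted p 0.0522, with the block 0.00774). With OA it was at 46, 41.8, and 41.7 CPM and 66.4, 76.6, and 59.3 CPM, a log2 fold change of 0.64 (SE 0.23, adjusted p 0.137, with the block 0.0309). All treated libraries were above all DMSO libraries in both comparisons. ALG5, which makes the glucose donor dolichol phosphate glucose, had 56.6, 41.5, and 45.6 CPM in the DMSO libraries and 88.4, 76.5, and 84.1 CPM with TN, a log2 fold change of 0.79 (SE 0.21, adjusted p 0.0626, with the block 0.00639). With OA, ALG5 had 46.3, 48.4, and 40.2 CPM and 52.2, 105, and 50.6 CPM, a log2 fold change of 0.62 (SE 0.33, adjusted p 0.297), most of it in OA replicate 2.

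The glucosyltransferases ALG6, ALG8, and ALG10 add the glucoses to the finished chain in this order. They were lower in all TN libraries than in all DMSO libraries, and none was called in edgeR's test without a block or offsets. Among the 14 genes of the step, these 3 were lower and 3 were higher without overlap, beside 16.8% and 15.9% of all genes. The paralog ALG10B overlapped, with a log2 fold change of −0.10. With GC offsets, ALG10 was called lower (adjusted p 0.0362, log2 fold change −0.87). ALG8 was also lower in all OA libraries, with log2 fold changes of −0.17 for TN and −0.21 for OA that became 0.033 and 0.054 with GC offsets. ALG6 was measured at 27.6, 34, and 34.6 CPM in the DMSO libraries and 9.27, 24.3, and 19.2 CPM with TN. Its log2 fold change was −0.86 (SE 0.35, adjusted p 0.19, with the block 0.0175). Under TN this became −0.62 with GC offsets (adjusted p 0.141) and −0.60 with GC offsets and the block (0.0143). With OA, ALG6 was at 37, 20.8, and 27.1 CPM and 21.4, 2.99, and 14.2 CPM, a log2 fold change of −1.13 (SE 0.60, adjusted p 0.295, with the block 0.0158, and with GC offsets and the block 0.0815). Its lowest levels were in OA replicate 2 and TN replicate 1. ALG10, chosen after its values were seen, was at 9.53, 12.1, and 15.2 CPM in the DMSO libraries and 2.74, 8.48, and 6.18 CPM with TN, a log2 fold change of −1.07 (SE 0.42, adjusted p 0.169, with the block 0.0191). Reads can match both ALG10 and its near-identical paralog ALG10B, so that the counts of both are uncertain. ALG12, the mannosyltransferase whose upstream window holds the ER stress response element, was at 27.8, 15.6, and 15.1 CPM in the DMSO libraries and 43.9, 21.6, and 24 CPM with TN. These groups overlapped, while each TN library was above the DMSO library of its own number, and the log2 fold change was 0.61 (SE 0.37, adjusted p 0.368, with the block 0.0276). ALG1, ALG3, ALG8, ALG9, ALG10B, ALG11, ALG13, and ALG14 had log2 fold changes between −0.17 and 0.26 with TN, with adjusted p of 0.557 or more. With OA, these 8 genes with ALG10 and ALG12 lay between −0.76 and 0.40, with adjusted p of 0.458 or more.

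The oligosaccharyltransferase was the step with the highest median change under TN. Its 10 subunits had a median log2 fold change of 0.90 with TN, where 10 of 10 had a positive sign (9 of 10 under scaling to total counts, where OST4 was at −0.03) and 4 were called higher, or 7 with the replicate block, beside 3.65% and 11.8% of all genes. With GC offsets 9 of the 10 were called higher, beside 10.6% of all genes, where the 5 added were STT3B, TUSC3, MAGT1, OSTC, and DAD1 (adjusted p 0.0136, 0.039, 0.00168, 0.00581, and 0.0316). With OA, the median was 0.62, 9 of 10 had a positive sign (7 of 10 under scaling to total counts), and 1 was called higher, or 4 with the block, beside 2.76% and 11.7% of all genes. The subunits were also the most abundant step per length. Their median was 80.0 RPKM (CPM per kilobase of exon, on the same scaled libraries) in the OActrl libraries and 87.6 RPKM in the TNctrl libraries, against 7.6 and 8.42 RPKM for all 52 genes, with DAD1 the highest and TUSC3 the lowest subunit.

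STT3A and STT3B are the alternative catalytic subunits. STT3A serves the complex that works at the translocon during translation, and STT3B serves the complex that can also act on finished chains. STT3A (ENSG00000134910.14, chr11:125591712-125625215 on the plus strand) was measured at 219.9, 217, and 219 CPM in the DMSO libraries and 592, 479.6, and 489.9 CPM with TN. The DMSO libraries were within a few CPM of each other, and each TN library was above them. The means were 219 ± 1.6 and 520.5 ± 62.1 CPM (SD, n = 3), and the log2 fold change was 1.25 (SE 0.18, adjusted p 0.0106). The call was lost without DMSO replicate 2 (adjusted p 0.0767) or 3 (0.0743), while the log2 fold change stayed at 1.19 or more when any 1 library was left out. With OA, STT3A was at 214, 237, and 201 CPM and 278, 659, and 304 CPM. OA replicate 2 stood out, the groups did not overlap, and the log2 fold change was 0.93 (SE 0.35, adjusted p 0.162, with the block 0.0305). STT3B was at 211, 283, and 288 CPM in the DMSO libraries and 196, 483, and 545 CPM with TN, where replicate 1 was below every DMSO library and replicates 2 and 3 were above. Its log2 fold change was 0.65 (SE 0.38, adjusted p 0.344, with the block 0.0921). With OA, STT3B was at 258, 154, and 206 CPM and 295, 103, and 166 CPM, a log2 fold change of −0.13 (SE 0.39, adjusted p 0.867).

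RPN1 (ribophorin I), RPN2 (ribophorin II), and DDOST are subunits that both complexes share, and all of them rose with TN. DDOST (ENSG00000244038.11, chr1:20651767-20661544 on the minus strand) was measured at 469, 383, and 358 CPM in the DMSO libraries and 1352, 951, and 961 CPM with TN. The lowest TN library was above the highest DMSO library by far more than the DMSO libraries differed among themselves, and the log2 fold change was 1.43 (SE 0.23, adjusted p 0.0135). The call was lost without DMSO replicate 2 (0.0834), DMSO replicate 3 (0.0813), or TN replicate 3 (0.0512), with a log2 fold change of 1.29 to 1.55 over all 6 such fits. RPN2 (ENSG00000118705.17, chr20:37178410-37241619 on the plus strand) varied little within a group, at 308, 304, and 304 CPM in the DMSO libraries and 621, 654, and 668 CPM with TN. Its log2 fold change was 1.08 (SE 0.17, adjusted p 0.0126), and the call was lost without DMSO replicate 2 (0.104) or 3 (0.105) and without TN replicate 2 (0.0616) or 3 (0.0815), with a log2 fold change of 1.03 to 1.16. TN replicate 1 was the lowest TN library for RPN2 and the highest for DDOST, STT3A, and RPN1. RPN1 (ENSG00000163902.12, chr3:128619969-128681075 on the minus strand) was at 764, 635, and 641 CPM and 1433, 1109, and 1162 CPM, a log2 fold change of 0.86 (SE 0.20, adjusted p 0.0426). This call held without TN replicate 1 (0.0213) and was lost without TN replicate 2 (0.101), TN replicate 3 (0.131), or DMSO replicate 1 (0.0528), 2 (0.194), or 3 (0.193), with no filter on low counts (0.0581), and in 1 fit of all 12 libraries (0.051). Its log2 fold change was 0.78 to 0.96 when 1 library was left out, 0.81 with no filter, and 0.85 in the fit of 12.

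With OA, these 3 subunits were not called in edgeR's test. DDOST and RPN2 were called by DESeq2 (adjusted p 0.0445 and 0.0429) and in 1 fit of all 12 libraries with edgeR (0.0423 and 0.0361), and DDOST also with no filter (0.0228) and with GC offsets (0.0435). DDOST was at 402, 499, and 399.8 CPM in the DMSO libraries and 609, 1432, and 711 CPM with OA, a log2 fold change of 1.08 (SE 0.35, adjusted p 0.113, with the block 0.0108). RPN2 was at 308, 289.9, and 282 CPM and 440.0, 554, and 420.2 CPM, a log2 fold change of 0.68 (SE 0.22, adjusted p 0.11, with the block 0.027). Both were higher in all OA libraries than in all DMSO libraries. RPN1 was at 648, 801, and 659 CPM and 729, 1539, and 823 CPM, where OA replicate 1 lay among the DMSO libraries, a log2 fold change of 0.55 (SE 0.32, adjusted p 0.335, with the block 0.122).

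**Figure D3:**
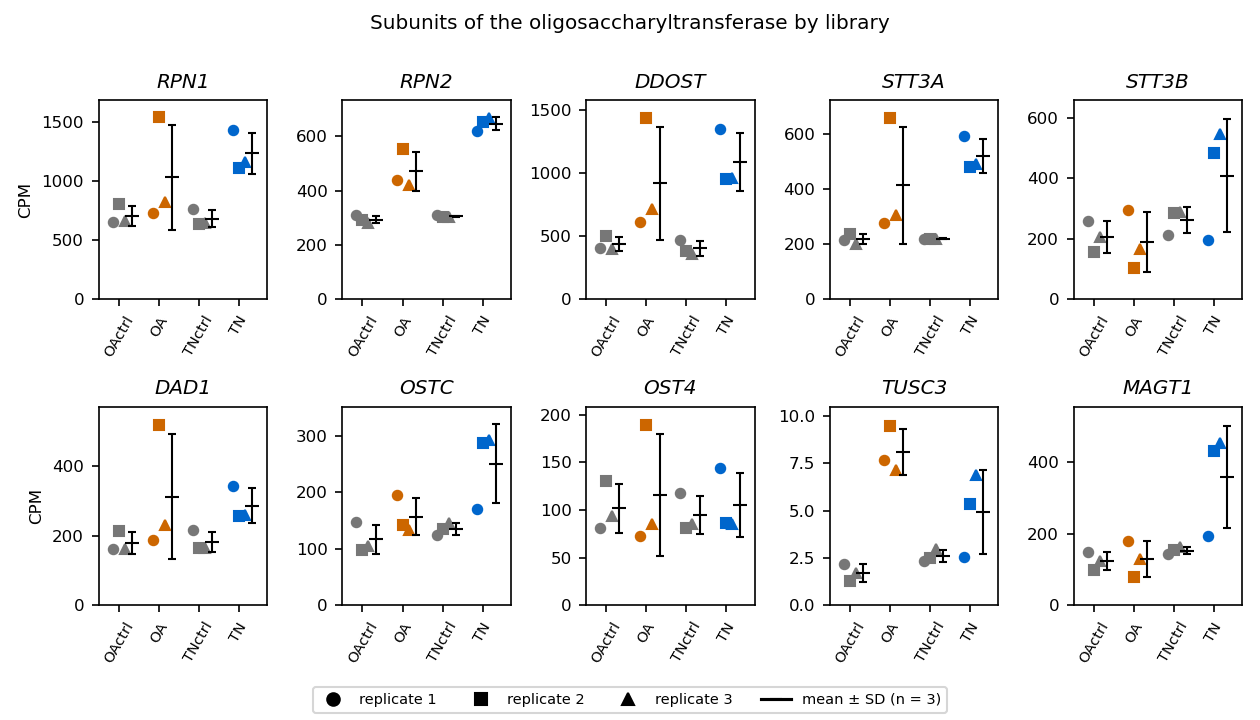
CPM of the 10 oligosaccharyltransferase subunits in each library, with 1 panel per gene, a linear axis from 0, a marker shape per replicate number, and the mean ± SD of each group (n = 3). STT3A, RPN1, RPN2, and DDOST are higher in every TN library than in every DMSO library, TUSC3 is higher in every OA library, and OST4 overlaps in all groups.

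TUSC3 and MAGT1 are alternative oxidoreductase subunits of the complex with STT3B, which helps it reach sites near cysteines. TUSC3 (ENSG00000104723.21) was low in these cells, with 2.2, 1.26, and 1.68 CPM in the OActrl libraries and 7.67, 9.48, and 7.16 CPM with OA, from 42, 32, and 33 and 104, 95, and 69 counts. Every OA library was above every DMSO library by more than the libraries of either group differed among themselves. The means were 1.71 ± 0.47 and 8.1 ± 1.22 CPM (SD, n = 3), and the log2 fold change was 2.24 (SE 0.35, adjusted p 0.0223, with the block 0.0021), the largest among the 52 genes in either comparison. The call held without OA replicate 1 (0.0256) or 2 (0.0174) and was lost without OA replicate 3 (0.0583) or DMSO replicate 1 (0.0886), 2 (0.101), or 3 (0.151), with a log2 fold change of 2.10 to 2.49 throughout. With TN, TUSC3 was at 2.35, 2.51, and 2.97 CPM in the DMSO libraries and 2.53, 5.35, and 6.87 CPM with TN, where replicate 1 lay among the DMSO libraries, and the log2 fold change was 0.92 (SE 0.41, adjusted p 0.219). MAGT1 showed the other order. With TN, MAGT1 was at 142, 155, and 162 CPM in the DMSO libraries and 194, 431, and 453 CPM in the TN libraries, a log2 fold change of 1.23 (SE 0.33, adjusted p 0.0675, with the block 0.00738). With OA, MAGT1 was at 149, 98, and 123 CPM and 179, 78.7, and 129 CPM, a log2 fold change of 0.062 (SE 0.33, adjusted p 0.926) that was −0.074 under scaling to total counts. MAGT1 and STT3B were named after their values were seen.

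Per length, TUSC3 made up 1.9, 1.66, and 1.75 percent of the summed RPKM of TUSC3 and MAGT1 in the OActrl libraries and 5.31, 13.6, and 6.79 percent in the OA libraries of replicates 1 to 3. It made up 2.12, 2.07, and 2.34 percent in the TNctrl libraries and 1.68, 1.6, and 1.95 percent with TN. The share was thus higher in all OA libraries and lower in all TN libraries than in the DMSO libraries of the same stressor. The decline under TN was small and rests on few TUSC3 counts. These were 43, 44, and 40 in the TNctrl libraries and 24, 58, and 80 with TN. MAGT1 remained the more abundant transcript of the pair in all 12 libraries. The ratio of STT3A to STT3B, also in RPKM, was 0.563, 1.05, and 0.663 in the OActrl libraries, 0.639, 4.33, and 1.24 with OA, 0.709, 0.52, and 0.517 in the TNctrl libraries, and 2.06, 0.675, and 0.61 with TN. Its highest values belonged to OA replicate 2 and TN replicate 1. The transcript of STT3A has a GC content of 43.4%, that of STT3B 40.5%, that of TUSC3 38.1%, and that of MAGT1 39%. With GC offsets, added after the data were seen, the log2 fold changes under OA were 1.25 for STT3A, 0.16 for STT3B, 2.93 for TUSC3, and 0.46 for MAGT1, and under TN they were 1.48, 0.81, 1.11, and 1.43.

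**Figure D4:**
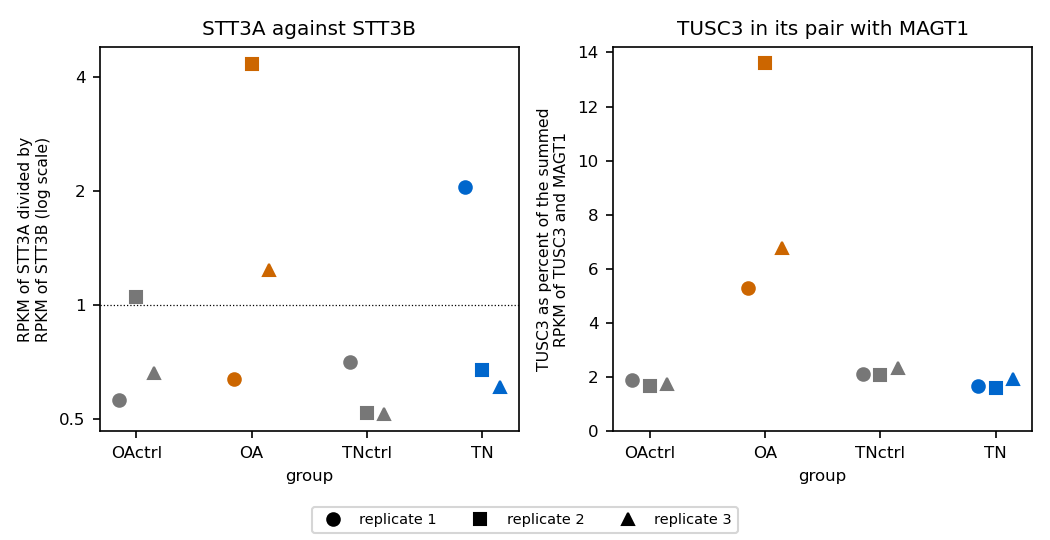
Ratio of STT3A to STT3B in RPKM on a log axis (left) and RPKM of TUSC3 as a percent of the sum with MAGT1 on a linear axis (right), 1 point per library in 4 groups. TUSC3 takes 5.31 to 13.6 percent in the OA libraries and 1.6 to 2.34 percent in the TN libraries and their DMSO libraries.

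Of the small subunits, DAD1 was at 216, 165, and 164 CPM in the DMSO libraries and 344, 256, and 259.6 CPM with TN, a log2 fold change of 0.66 (SE 0.22, adjusted p 0.12, with the block 0.00864). OSTC, which links the complex with STT3A to the translocon, was at 125, 136, and 146 CPM and 170.2, 289, and 294 CPM, a log2 fold change of 0.89 (SE 0.26, adjusted p 0.0808, with the block 0.00832). All TN libraries of both genes were above all DMSO libraries, and both genes were named after their values were seen. With OA, the log2 fold changes were 0.80 for DAD1 (SE 0.39, adjusted p 0.261) and 0.43 for OSTC (SE 0.27, adjusted p 0.37). OST4 had log2 fold changes of 0.19 with OA and 0.15 with TN, with adjusted p of 0.805 and 0.794.

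In the trimming step, UGGT1 rose with TN and the other 9 genes were not called under either stressor in edgeR's test. DESeq2 called MAN1B1 with TN as well (adjusted p 0.0363), and GC offsets called MAN1B1, GANAB, and MAN1A2 (0.0247, 0.0435, and 0.00246). UGGT1 (ENSG00000136731.13, chr2:128091200-128195677 on the plus strand), the folding sensor of the calnexin cycle, was measured at 134, 156, and 146 CPM in the DMSO libraries and 287, 270.3, and 285 CPM with TN. The TN libraries lay within a narrow range, TN replicate 1 included, and the log2 fold change was 0.95 (SE 0.18, adjusted p 0.024). The call held without TN replicate 1 (0.00551) and was lost without TN replicate 2 (0.0851) or 3 (0.102) or DMSO replicate 1 (0.0713), 2 (0.12), or 3 (0.135), with a log2 fold change of 0.90 to 1.00. With OA, UGGT1 was at 153, 137, and 146 CPM and 186, 214, and 193 CPM, again without overlap, a log2 fold change of 0.44 (SE 0.21, adjusted p 0.246). GANAB, the catalytic subunit of glucosidase II, was at 205, 173, and 157 CPM in the DMSO libraries and 379, 238, and 216 CPM with TN (log2 fold change 0.64, SE 0.27, adjusted p 0.193, with the block 0.0196), and at 185, 228, and 206 CPM and 229.9, 465, and 337 CPM for OA (log2 fold change 0.74, SE 0.29, adjusted p 0.176, with the block 0.0321). All treated libraries of GANAB were above all DMSO libraries. MAN1B1, a mannosidase that marks misfolded glycoproteins, was at 71.7, 70.3, and 67.1 CPM in the DMSO libraries and 137, 99.2, and 95.6 CPM with TN (log2 fold change 0.67, SE 0.21, adjusted p 0.11, with the block 0.0188), and at 69.2, 106, and 75.6 CPM and 88.4, 149, and 104 CPM for OA (log2 fold change 0.45, SE 0.29, adjusted p 0.389).

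The Golgi mannosidases MAN1A1 and MAN1A2, named after their values were seen, had opposite signs under TN. MAN1A1 was at 129, 286, and 286 CPM in the DMSO libraries and 48.9, 182, and 176 CPM with TN, a log2 fold change of −0.78 (SE 0.52, adjusted p 0.414), and was called lower with the block (0.00837). MAN1A2 was at 54.8, 88.9, and 84 CPM and 67.9, 169, and 174 CPM, a log2 fold change of 0.85 (SE 0.39, adjusted p 0.229), and was called higher with the block (0.0165). With OA, MAN1A1 was at 239, 48.4, and 161 CPM and 139.7, 16.2, and 77.7 CPM, a log2 fold change of −0.94 (SE 0.76, adjusted p 0.488, with the block 0.00476). In both comparisons each treated library of MAN1A1 was below the DMSO library of its own number. MOGS, glucosidase I, was at 62, 49.2, and 49.1 CPM in the DMSO libraries and 88.7, 72.7, and 74.8 CPM with TN without overlap, a log2 fold change of 0.56 (SE 0.20, adjusted p 0.149, with the block 0.0223). The glucosidase II subunit PRKCSH, UGGT2, and the N-acetylglucosaminyltransferases MGAT1 and MGAT2 had log2 fold changes between −0.23 and 0.50 with TN, and with OA these 4 with MOGS and MAN1A2 lay between −0.32 and 0.59, with adjusted p of 0.269 or more.

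The change itself was compared between the stressors in 1 fit of all 12 libraries. No gene had an adjusted p under 0.05 for TN minus OA, 0 of 15429 in edgeR's test, where 348 (2.26%) had an unadjusted p under 0.05, and 0 with the block. Without the filter on low counts, 25 were called, and 4 without OA replicate 2. DESeq2 gave 2 (0.013%, both lower), and GC offsets with the block gave 5 (0.0259% higher and 0.00648% lower), and no fit called a member. Among the 52 genes, 3 had an unadjusted p under 0.05. The difference was 1.24 on the log2 scale for MAGT1 (SE 0.53, p 0.0391), −1.22 for TUSC3 (SE 0.52, p 0.0379), and 0.59 for UGGT1 (SE 0.22, p 0.0197), each from edgeR's model with an adjusted p of 1.00. A difference between the stressors was therefore not shown for any of the 52 genes, although the list of calls differed. The stressors had DMSO libraries of their own, so that the comparisons share no control library.

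Summed over the 52 genes, the members accounted for 0.507%, 0.468%, and 0.479% of the counts of the OActrl libraries and 0.596%, 0.633%, and 0.520% with OA. They took up 0.470%, 0.508%, and 0.496% in the TNctrl libraries and 0.635%, 0.806%, and 0.793% with TN. All treated libraries were above all DMSO libraries of their stressor, and TN replicate 1 was the lowest TN library. The means were 0.485% ± 0.0199 and 0.583% ± 0.0574 for OA and 0.491% ± 0.0194 and 0.744% ± 0.0953 for TN (SD, n = 3). These shares depend on what else was counted, since the 7SL RNA gene RN7SL1 alone took 6.02 to 8.11% of the counts in the DMSO libraries and 8.4 to 17.9% in the treated libraries. Without RN7SL1, RN7SL2, and RN7SK, the means were 0.522% and 0.672% for OA and 0.526% and 0.834% for TN.

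The GC content of the members' longest transcripts ranged from 32.9 to 61.1%, with a median of 46.1%. Across the 52 genes, the rank correlation between GC content and the log2 level in TN replicate 1 minus the mean of replicates 2 and 3 was 0.876, and that for OA replicate 2 minus the mean of replicates 1 and 3 was 0.646. These are descriptions across genes of the same libraries. GMPPA, GMPPB, DPAGT1, DAD1, and GANAB were highest in these 2 libraries, while STT3B, ALG6, ALG10, and MAN1A1 were lowest in them among the treated libraries of their stressor. The 4 called subunits and UGGT1 stayed above all DMSO libraries in every TN library, with GC contents of 50.2% for RPN1, 51.5% for RPN2, 54.1% for DDOST, 43.4% for STT3A, and 45% for UGGT1. So did GFPT1, the other called gene, with a GC content of 38.2%. Its log2 level in TN replicate 1 minus the mean of replicates 2 and 3 was −0.96. With GC offsets, added after the data were seen, 19 of the 52 genes were called higher and 1 lower under TN, against 10.6% and 8.71% of all genes, and 4 were called higher and 0 lower under OA, against 8.18% and 6.96%. Beside UAP1, GC offsets with the block called ALG5, OSTC, and MAN1A2 higher under OA, and UGGT2 higher and MPDU1 lower under TN, where neither the block nor the offsets alone called them.

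**Figure D5:**
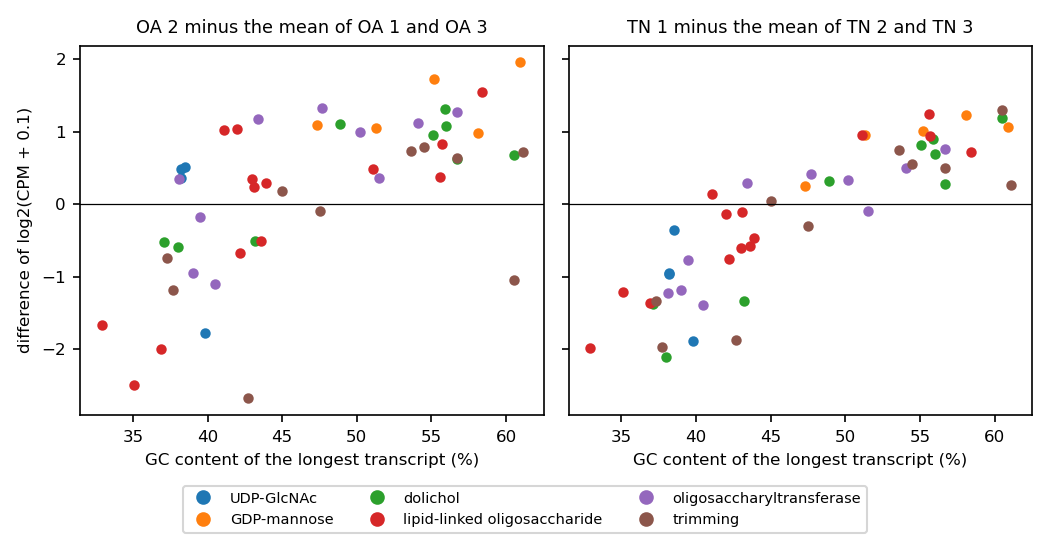
Difference of log2(CPM + 0.1) between 1 treated library and the mean of the other treated libraries of its stressor (vertical axis) against the GC content of the longest transcript (horizontal axis, percent), for OA replicate 2 (left) and TN replicate 1 (right), 1 point per gene, coloured by step (n = 52). Points rise from left to right in both panels, with rank correlations of 0.646 and 0.876.

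The genes around the pathway were counted in the same way, in lists of genes with a role beside the 52. Of 10 genes of the calnexin cycle and glycoprotein disposal, 6 rose with TN and 1 with OA (8 and 7 with the replicate block), beside 3.65% and 2.76% (11.8% and 11.7%) of all genes, and the median log2 fold changes were 1.34 and 0.87. With TN, the lectin chaperone CALR rose from 788 ± 39.4 to 3189.8 ± 474 CPM (SD, n = 3), and the log2 fold change was 2.02 (SE 0.20, adjusted p 0.00389). The disulfide isomerase PDIA3 rose by 1.90 (SE 0.17, adjusted p 0.00301) and the disposal lectin OS9 by 1.76 on the log2 scale (SE 0.19, adjusted p 0.00531). EDEM1, which speeds the disposal of misfolded glycoproteins, was the gene that rose with OA, by 1.47 on the log2 scale (SE 0.30, adjusted p 0.0369). Of 23 tested other genes of N-glycosylation, mostly of the Golgi and of sugar donors, 2 rose with TN and 0 with OA in edgeR's test. Of all genes, 3.65% and 2.76% were called higher. At an unadjusted p under 0.05, 6 of the list were higher with TN and 2 with OA, and 0 were lower. This stands beside 24.3% and 23.3% of all genes in either direction. DESeq2 called 2 under each stressor, beside 15% of all genes with TN and 13.1% with OA. With the block, 6 were higher with TN, and 3 were higher and 1 lower with OA, beside 27.1% and 26.7% of all genes in either direction. The 2 called with TN were NANS, a sialic acid synthase, with a log2 fold change of 1.28 (SE 0.26, adjusted p 0.0313), and the galactosyltransferase B4GALT1 with 1.39 (SE 0.29, adjusted p 0.034). Of 10 reference genes of ER stress, 9 rose with TN and 8 with OA, beside 3.65% and 2.76% of all genes. HSPA5, the main ER chaperone and named here for that role, had log2 fold changes of 2.90 with TN (SE 0.21, adjusted p 0.0024) and 2.83 with OA (SE 0.52, adjusted p 0.0301). The 6 called members under TN had smaller fitted values than HSPA5, between 0.86 and 1.55.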

How the data were processed

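HCT116 RNA was sequenced from total-RNA libraries that keep strand, per the labels, while the paper calls the assay mRNA-seq. Alignment to hg38 was done with STAR, and the authors deposited its raw counts per gene. The strand column is not given in the sources used here, so reads of overlapping antisense genes may not be told apart. The deposited tables of the authors' DESeq2 comparisons (fold changes and p-values) were not used. Every column of per-sample values was mapped to a library, and no pair of libraries of a group agreed within counting noise.

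The members and the lists were chosen with earlier results of these data known. Counts were filtered with filterByExpr, normalized by TMM, and tested in edgeR 4.0.16 (R 4.3.3) by the two-sided quasi-likelihood test, OA and TN separately and without a replicate term, and p-values were adjusted (Benjamini-Hochberg) for every gene tested. SEs came from the log2 fold change and its F statistic. The scripts were tested on simulated data. Precision is set by 3 libraries a group and, for genes such as ALG10 with 12 counts in 1 library, by counting. Exon lengths, GC contents, and coordinates come from Gencode version 44. Motifs were searched on both strands. Members with values in every library were DPAGT1, each called member, and the 2 with the lowest p of each step and stressor. Other members with values of their own were chosen after seeing them.

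The same-numbered libraries correlated over 0.1 in every pair, the criterion by which the replicate numbers were taken to pair them, although some differently numbered libraries correlated as strongly. Alternatives were DESeq2 1.42.0, its size factors, total counts, a minimum of 10 counts per library or no filter at all, the replicate number as a block, 1 fit to 12 libraries, leaving out each library, and, added later, GC offsets (span 0.3) with and without the block.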

Additional observations from a re-analysis of the deposited data

How the results depend on the processing

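The count of members called under OA was 2 and became 1 under scaling to total counts, 4 with DESeq2, 4 in 1 fit of all 12 libraries, 13 with the replicate block, 4 with GC offsets, and 14 with GC offsets and the block. It lay between 0 and 2 when 1 library was left out, where 3 to 1179 of all genes were called. Under TN the count was 6 and became 13 with DESeq2, 23 with the replicate block, 20 with GC offsets, and 28 with GC offsets and the block, and it lay between 0 and 14 when 1 library was left out (14 without TN replicate 1, 0 without DMSO replicate 2 or 3), where 151 to 2361 of all genes were called. The other settings stayed within 1.5 times these counts, and the count for TN minus OA was 0 in each fit. Under TN, the 6 called in 1 fit of all 12 libraries included ALG2 and not RPN1. The 6 called with no filter included MAGT1 and not RPN1. All genes called rose as well with the block, to 3914 of 14681 for OA and 3915 of 14432 for TN, and with DESeq2, to 1927 and 2162. With GC offsets, 15.1% of all genes were called for OA and 19.4% for TN. With GC offsets and the block, 25% of all genes were called for OA, beside 26.9% of the members, and 32.4% for TN, beside 53.8% of the members. The pairing by replicate number rests on correlations alone, no label names a shared batch, and OA 1 with OActrl 3 and TN 2 with TNctrl 3 correlated above a same-numbered pair.

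Signs turned under both stressors. MAGT1 under OA was at −0.074 under scaling to total counts and between −0.27 and 0.33 when 1 library was left out. STT3B was at 0.16 with GC offsets, 0.16 with GC offsets and the block, and between −0.62 and 0.19. GMPPB ranged from −0.043 to 1.28 and SRD5A3 from −0.056 to 0.75. Other members whose sign turned include OST4 under both stressors, ALG1 under TN (−0.02), and MAN1A2 under OA (−0.018) with scaling to total counts, and ALG8 under both with GC offsets. The cause was not tested. The called members kept a positive sign in each alternative. The difference in the members' summed share stayed positive, from 0.073 to 0.130 percentage points for OA and 0.222 to 0.308 for TN when 1 library was left out, and was 0.150 and 0.307 without the small RNAs.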

Other observations

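GPI anchor synthesis and mucin-type O-glycosylation draw on some of the same sugar donors as N-glycosylation. GPI anchor synthesis had 0 called genes under either stressor in edgeR's test, of 25 tested with OA and 24 with TN, with 4 and 3 at an unadjusted p under 0.05 (23.3% and 24.3% of all genes) and 1 and 3 called by DESeq2 (13.1% and 15% of all genes), and it shares DPM1, DPM2, DPM3, and MPDU1 with the 52 members. PIGW, the inositol acyltransferase, was lower in all treated libraries than in all DMSO libraries under both stressors, with log2 fold changes of −1.22 with TN (SE 0.34, adjusted p 0.0736) and −0.96 with OA (SE 0.31, adjusted p 0.114). Of 17 tested genes of mucin-type O-glycosylation, 2 were called with TN and 1 with OA, beside 6.99% and 4.48% of all genes. GCNT3, which makes branched O-glycans, rose under both, from 1.31 ± 0.636 to 14.4 ± 1.31 CPM with TN (SD, n = 3; log2 fold change 3.43, SE 0.38, adjusted p 0.00535) and from 0.811 ± 0.0912 to 7.02 ± 0.939 CPM with OA (log2 fold change 3.10, SE 0.35, adjusted p 0.0116). GALNT18, of the family that starts O-glycans, fell with TN, with a log2 fold change of −1.02 (SE 0.23, adjusted p 0.0398), and had −0.93 with OA (SE 0.35, adjusted p 0.159). With the replicate block, the GPI list had 2 higher and 3 lower under each stressor, and the mucin-type list had 1 higher under each, 2 lower with OA, and 3 lower with TN, beside 26.7% of all genes called with OA and 27.1% with TN in either direction. The adjusted p come from edgeR, adjusted after Benjamini and Hochberg.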
